A study of Mus musculus with 58 samples.

Results

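Kupffer cells, the resident macrophages of the liver, were compared 2 weeks after common bile duct ligation (CBDL2w) and in sham controls at 6 weeks (Sham6w). The comparison rests on 8 libraries, 4 CBDL2w and 4 Sham6w, taken by their cell type and title labels from 58 libraries in the series. All mice were of strain 129SV, and the labels name CBDL2w as the onset of cholestatic injury and Sham6w as control. The labels give no sex, age, antibody or gate for any group, and apart from replicate numbers they do not say whether libraries came from separate animals, so p-values measure the spread between these libraries only. Ligation and time since surgery cannot be told apart here, since controls exist at 6 weeks only. For contrast, 3 further sets of libraries were used: Kupffer cells 6 weeks after ligation (CBDL6w, 4), and CBDL2w against Sham6w in monocyte-derived macrophages (4 against 3) and in monocytes (4 against 3). Each of the 8 Kupffer libraries carries a single replicate number, whereas 2 of the 3 Sham6w libraries of monocyte-derived macrophages and 2 of the 3 of monocytes join several.

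Kupffer cells line the liver sinusoids, where they take up bacteria, complement-coated particles, aged red cells and free hemoglobin from portal blood. In mice their identity genes include the lectin Clec4f, the phosphatidylserine receptor Timd4, the complement receptor Vsig4 and the hemoglobin receptor Cd163. When resident cells are lost or the liver is injured, circulating monocytes enter, and cells derived from them can acquire several of these genes over time, Clec4f early and Timd4 late. Ligation of the common bile duct blocks bile outflow and is used as a model of cholestasis with fibrosis.

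The values are normalized counts from 3' end sequencing with molecular identifiers. Recovered reads numbered 339462 to 452668 in the CBDL2w libraries and 285086 to 521954 in the Sham6w libraries. Genes detected numbered 11902 to 12900 in CBDL2w and 11767 to 13360 in Sham6w. As a check of the labelled cell type, Clec4f, Vsig4, Cd5l, Timd4 and Adgre1 were present in all 8 libraries. The biliary gene Epcam and the neutrophil gene Ly6g were at 0 in all 8, and the T cell gene Trac reached at most 0.634. Other markers of other cells were present. Means in CBDL2w and Sham6w were 9.33 and 6.23 for neutrophil S100a8 and 33.3 and 35.4 for endothelial Pecam1. For hepatocyte Alb they were 6.22 and 25.1, so the check does not show that the libraries hold Kupffer cells only. In bulk libraries such as these, fewer cells of a type and less RNA per cell cannot be told apart.

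Changes are CBDL2w minus Sham6w on the log2(normalized count + 1) scale, ± SE, from limma with Benjamini-Hochberg adjusted p under 0.05 as the threshold, over 6159 tested genes. Of these, 67 rose (1.09%) and 100 fell (1.62%), together 2.71%, with the median of all tested genes at -0.03. Counts of calls in the gene lists below stand beside these shares. The lists and their members were chosen with earlier results of these data known. With every library scaled to an equal total the split was 128 higher and 88 lower, so the split between rises and falls depends on scaling. The genes that rose comprised 36 named genes of other kinds, 11 ribosomal protein genes, 10 ribosomal pseudogenes or retrogenes and 10 other predicted genes or pseudogenes. Those that fell comprised 63 other named genes, 18 major urinary protein genes or pseudogenes, 9 transcripts of the mitochondrial genome and 10 predicted genes or pseudogenes.

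**Figure D1:**
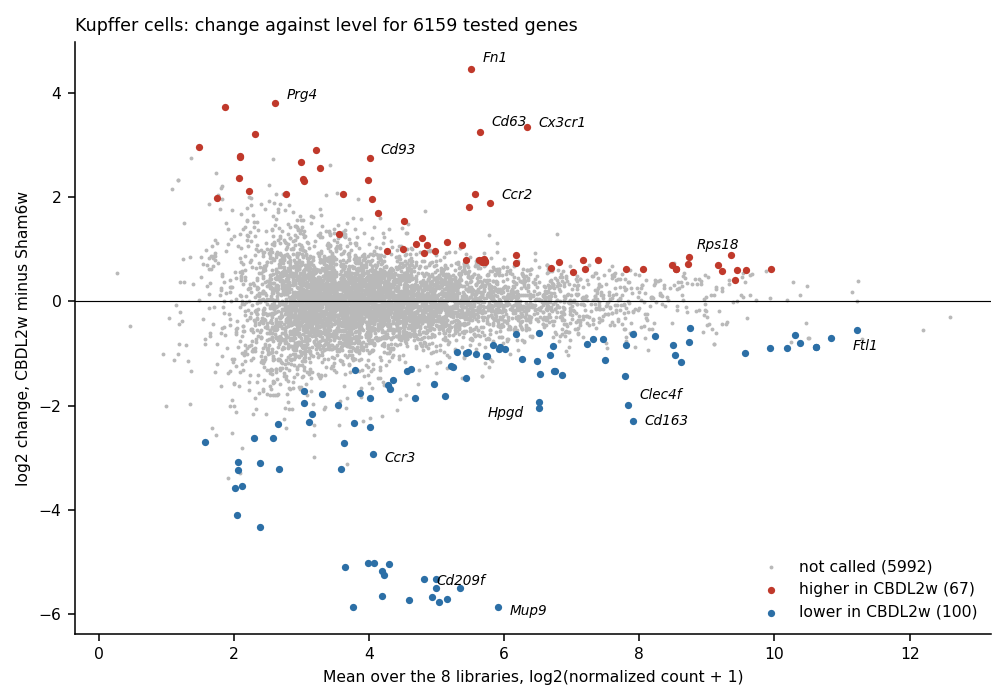
Change of each tested gene (vertical axis, log2, CBDL2w minus Sham6w) against its mean level over the 8 Kupffer cell libraries (horizontal axis, log2(normalized count + 1)). Red points are the 67 genes that rose, blue points the 100 that fell and grey points the genes not called. The blue group at the bottom is made of major urinary protein genes and Cd209f.

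Genes of Kupffer cell identity fell in part. Of 23 tested members, 9 fell and 0 rose, with a median change of -0.81 and 21 negative values. Of all tested genes, 1.62% fell and 1.09% rose. Clec4f (ENSMUSG00000014542, chromosome 6, 83644542 to 83656187, GRCm38), a galactose-binding lectin found on mouse Kupffer cells, had 133, 97.8, 99.7 and 127 normalized counts in CBDL2w against 464, 497, 432 and 420 in Sham6w. Every CBDL2w library lay far below every Sham6w library (-1.99 ± 0.28, adjusted p = 8.64e-05). Cd163 (chromosome 6, 124304656 to 124330527), which takes up hemoglobin bound to haptoglobin, had 119, 101, 81.7 and 136 in CBDL2w against 468, 566, 527 and 583 in Sham6w (-2.30 ± 0.35, adjusted p = 0.000303). Vsig4 (chromosome X, 96247203 to 96293438), which binds C3 fragments on bacteria, had 166, 110, 116 and 152 in CBDL2w against 351, 377, 362 and 361 in Sham6w (-1.43 ± 0.23, adjusted p = 0.00051).

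The size of the fall differed among members of the list. Cxcl13, a B cell chemokine, was nearly gone, at 6.97, 3.43, 4.30 and 1.90 in CBDL2w against 28.7, 35.8, 33.7 and 25.7 in Sham6w (-2.72 ± 0.51). The complement component C6 fell by 2.05 on the log2 scale, Pcolce2, a secreted enhancer of procollagen processing, by 1.81 (a call lost without any of 4 libraries), the iron exporter Slc40a1 by 0.77 and the syndecan Sdc3 by 0.81. Timd4, the marker of long-resident cells, fell less, with 53.1, 34.3, 44.7 and 55.2 in CBDL2w against 75.6, 89.1, 108 and 82.2 in Sham6w (-0.92 ± 0.21, adjusted p = 0.0174). Its groups did not overlap, but the call was lost without CBDL2w replicate 2 or 3 or Sham6w replicate 2 or 3. The Timd4 call was also lost with no filter and with a replicate block. Calls for Clec4f, Cd163, Vsig4, C6 and Cxcl13 were kept under every alternative and with every library left out.

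Other identity genes gave no call in the main test. Cd5l, a secreted scavenger protein, had 486, 348, 429 and 552 in CBDL2w against 518, 594, 601 and 730 in Sham6w (-0.44 ± 0.17, adjusted p = 0.197). The transcription factors Id3 (-0.19 ± 0.23) and Spic (-0.02 ± 0.37) and the scavenger receptor Marco (0.70 ± 0.44) had overlapping groups. Nr1h3, encoding the sterol receptor LXR alpha, had 88.9, 54.1, 121 and 91.9 in CBDL2w against 148, 103, 167 and 175 in Sham6w (-0.76 ± 0.23, adjusted p = 0.0800), and was called under 3 alternatives. Cd207, a lectin, ran the other way, at 132, 118, 115 and 114 in CBDL2w against 69.2, 66.1, 92.3 and 105 in Sham6w, without overlap but without a call (0.55 ± 0.23, adjusted p = 0.239). Of 19 tested genes common to tissue macrophages, 13 had negative changes, and 1 to 5 fell across the alternatives. In the main test, where 1.62% of all tested genes fell, 0 of the 19 rose and 2 fell (median -0.31). These were Hpgd, which degrades prostaglandins, at 47, 51.5, 40.4 and 44.4 in CBDL2w against 151, 186, 180 and 194 in Sham6w (-1.93 ± 0.24, adjusted p = 2.95e-05), and the transcription factor Maf (-0.67 ± 0.15, adjusted p = 0.0165). The Maf call was lost without CBDL2w replicate 1 or Sham6w replicate 3 and with a replicate block. The pan-macrophage gene Adgre1, encoding F4/80, had 220, 173, 144 and 152 in CBDL2w against 178, 228, 202 and 201 in Sham6w, with overlapping groups (-0.24 ± 0.17).

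**Figure D2:**
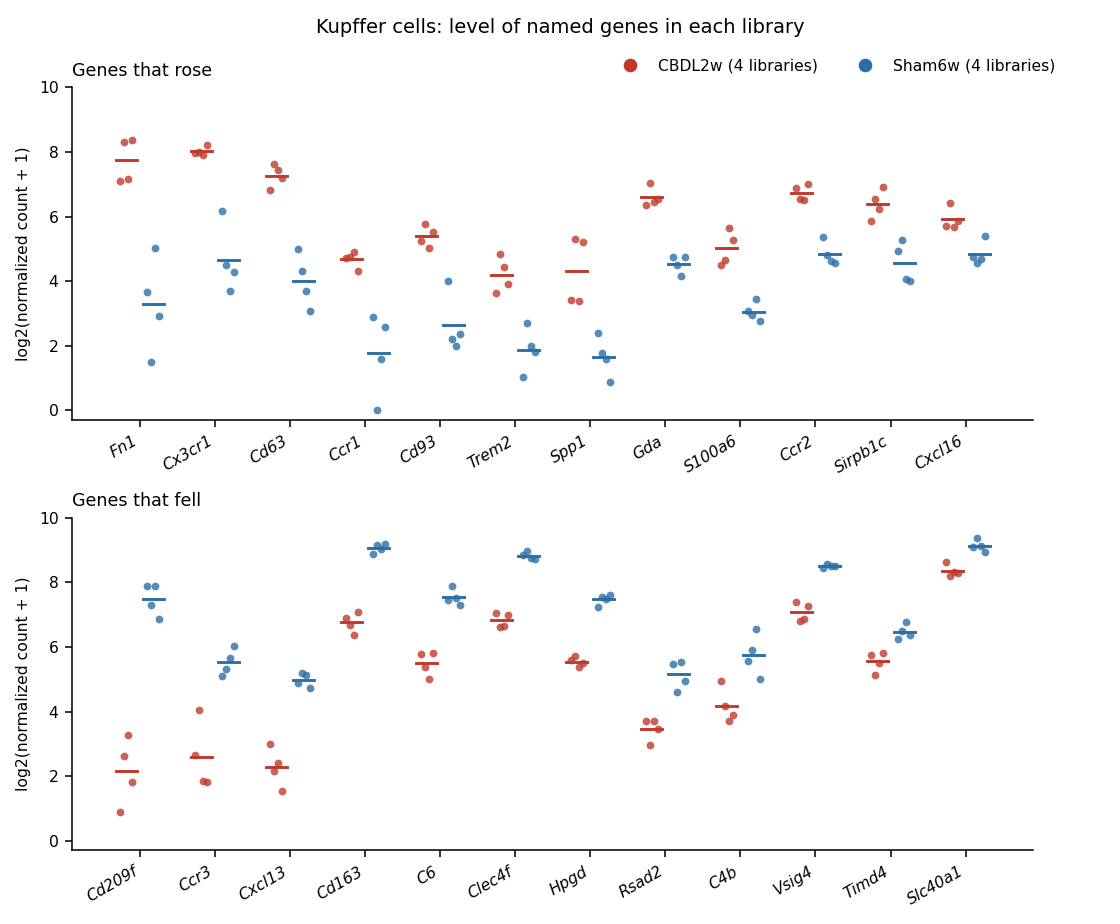
Level of 24 genes in each Kupffer cell library (vertical axis, log2(normalized count + 1)), with CBDL2w in red to the left of Sham6w in blue for each gene and short lines at the group means. Upper panel, genes that rose; lower panel, genes that fell. All 24 genes were called, and for each of them the 4 CBDL2w points lie on 1 side of the 4 Sham6w points. This does not hold for every called gene. The groups did not overlap for 56 of the 67 genes that rose and for 93 of the 100 that fell. Called genes with overlapping groups, such as Clec4n and Rtp4, are not shown.

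The deepest fall outside the major urinary protein genes was in another lectin. Cd209f (ENSMUSG00000051906, chromosome 8, 4102787 to 4105835), a mouse relative of the pathogen receptor DC-SIGN, had 0.871, 5.15, 8.60 and 2.54 in CBDL2w against 234, 156, 236 and 115 in Sham6w (-5.33 ± 0.62, adjusted p = 1.5e-05). Its neighbour in the family, Cd209g, had 0, 0, 1.72 and 0 in CBDL2w against 24.5, 7.28, 17.9 and 11.6 in Sham6w (-3.54 ± 0.71, adjusted p = 0.00645). Both calls were kept under every alternative in which the genes were tested. Among 13 tested C-type lectins, Clec4f and Cd209f fell and Clec4n, encoding the fungal receptor Dectin-2, rose to 116, 74.7, 109 and 93.2 in CBDL2w, against 52.2, 43.0, 76.4 and 42.3 in Sham6w. The groups of Clec4n overlapped (0.89 ± 0.20, adjusted p = 0.0174). Its call was lost without CBDL2w replicate 1 or 3 or Sham6w replicate 2 or 4, and with no filter.

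Promoters were read for genes that moved, because macrophage lineage and interferon factors are known to bind short motifs near start sites. The 250 bases before the start of 4 genes are shown from RefSeq, build GRCm38.p6, on the strand of each gene, chosen after their matches were seen: a lectin and an identity gene that fell, an interferon gene that fell and a lipid-associated receptor gene that rose. Capitals mark matches, on either strand, to GAGGAA (the ETS core bound by PU.1), TGANTCA (AP-1), the interferon-stimulated element type (a pair of GAAA runs with any 2 bases between them) and TGCTGAC (MAF half-site). Cd209f lies at chr8:4105765-4106014 (minus strand) with an AP-1 match, and Timd4 at chr11:46810549-46810798 (plus strand) with a MAF half-site. Rsad2 lies at chr12:26456453-26456702 (minus strand) with an interferon-type match followed by an AP-1 match, and Trem2 at chr17:48346151-48346400 (plus strand) with an ETS core followed by an AP-1 match. No matches overlapped each other.
Cd209f: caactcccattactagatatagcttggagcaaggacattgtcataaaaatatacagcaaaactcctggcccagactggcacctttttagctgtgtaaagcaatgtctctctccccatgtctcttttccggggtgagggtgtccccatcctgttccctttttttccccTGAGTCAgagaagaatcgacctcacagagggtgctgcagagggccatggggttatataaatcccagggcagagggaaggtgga
Timd4: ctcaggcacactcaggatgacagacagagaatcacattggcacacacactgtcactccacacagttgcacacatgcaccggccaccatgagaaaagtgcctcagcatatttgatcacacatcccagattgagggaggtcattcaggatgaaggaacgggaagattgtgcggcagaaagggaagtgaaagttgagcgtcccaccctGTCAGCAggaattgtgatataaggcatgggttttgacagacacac
Rsad2: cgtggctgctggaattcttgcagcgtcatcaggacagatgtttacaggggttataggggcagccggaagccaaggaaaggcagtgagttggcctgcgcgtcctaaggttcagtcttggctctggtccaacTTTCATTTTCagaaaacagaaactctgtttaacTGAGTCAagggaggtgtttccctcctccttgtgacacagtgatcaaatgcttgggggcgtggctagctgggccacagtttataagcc
Trem2: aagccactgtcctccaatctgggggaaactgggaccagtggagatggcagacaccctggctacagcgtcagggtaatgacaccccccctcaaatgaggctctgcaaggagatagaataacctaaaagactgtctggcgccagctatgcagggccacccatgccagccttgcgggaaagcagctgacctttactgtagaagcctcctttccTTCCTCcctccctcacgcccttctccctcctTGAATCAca

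Over 4411 promoters of tested genes, searched from 250 bases before to 50 after the start, the AP-1 letters occurred in 5.06%, against 4 of 36 promoters of genes that rose and 7 of 58 of genes that fell. The MAF half-site occurred in 3.4% of all, in 0 of 36 that rose and in 4 of 58 that fell, namely those of Timd4, Ccr3, Igfbp7 and Ccdc148. The ETS core occurred in 28.2% of all, in 10 of 36 that rose and in 14 of 58 that fell. Interferon-type letters occurred in 3.76% of all promoters, in 6 of 36 that rose, in 4 of 58 that fell and in 10 of 18 promoters of the interferon response list. The nearest RefSeq start was used at any distance from the annotated gene start. Counted windows include those of Mndal, Rbfox3 and Cd63, which lay 62304, 150556 and 8356 bases from that start. These counts describe letters in a window and were not tested.

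Some genes that mark monocytes and cells derived from them rose. Of 15 tested monocyte markers, 4 rose (Cx3cr1, Fn1, Ccr2 and S100a6) and 1 fell (Ifitm3, a membrane protein induced by interferon), with a median change of 0.94. Over all tested genes 1.09% rose and 1.62% fell. Cx3cr1 (ENSMUSG00000052336, chromosome 9, 119901616 to 120069879), the fractalkine receptor, had 247, 256, 241 and 295 in CBDL2w against 71.3, 21.8, 11.9 and 18.3 in Sham6w. The CBDL2w libraries stood close together, and Sham6w replicate 1 stood above the other controls (3.36 ± 0.33, adjusted p = 3.24e-06). Fn1 (chromosome 1, 71585520 to 71653200), encoding the matrix protein fibronectin, had 135, 319, 143 and 331 in CBDL2w against 11.7, 1.82, 31.8 and 6.64 in Sham6w. It was the gene with the largest rise and varied more than 2-fold within CBDL2w (4.46 ± 0.62, adjusted p = 8.64e-05). S100a6, a calcium-binding protein, had 21.8, 24.0, 49.0 and 38.0 in CBDL2w against 7.45, 6.67, 9.93 and 5.81 in Sham6w (1.96 ± 0.38, adjusted p = 0.00431).

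Other members of the list, and a general myeloid gene, gave no call. Ly6c2 had 4.36, 5.15, 4.30 and 1.27 in CBDL2w against 2.13, 0.606, 0 and 0 in Sham6w and did not reach the minimum for testing, while CBDL2w monocytes had 128 ± 17.0 (SD, n = 4). Plac8 had 84.5, 22.3, 43.0 and 31.1 in CBDL2w against 18.1, 17.6, 24.8 and 19.9 in Sham6w, with overlapping groups (0.97 ± 0.51, adjusted p = 0.389). Lyz2, a lysozyme gene of all myeloid cells, changed by 0.26 ± 0.19 (adjusted p = 0.568). Over the whole list of 22 monocyte markers the share of reads was 0.510 to 0.638% in CBDL2w against 0.301 to 0.352% in Sham6w. Over 24 identity genes it was 0.645 to 0.884% in CBDL2w against 1.32 to 1.40% in Sham6w. The groups did not overlap for either list, and the part of cell makeup in the results on single genes was not tested.

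Chemokine receptors moved as a set of few genes with large changes: of 8 tested, 3 rose and 1 fell (all tested genes, 1.09% and 1.62%). Ccr2 (chromosome 9, 124101950 to 124113557), the receptor by which monocytes leave the marrow, had 118, 91.8, 90.3 and 127 in CBDL2w against 40.5, 27.3, 23.8 and 22.4 in Sham6w (1.89 ± 0.26, adjusted p = 5.74e-05). Ccr1, another receptor for inflammatory chemokines, had 25.3, 25.7, 29.2 and 19.0 in CBDL2w against 6.39, 0, 1.99 and 4.98 in Sham6w (2.91 ± 0.46, adjusted p = 0.000436). Ccr3 (chromosome 9, 124021972 to 124031689), best known as the eotaxin receptor of eosinophils, had 5.23, 15.4, 2.58 and 2.54 in CBDL2w against 33.0, 38.8, 49.6 and 64.7 in Sham6w (-2.94 ± 0.47, adjusted p = 0.000482). None of these receptors had overlapping groups, and their calls were kept in every setting that tested them. Among 14 tested chemokines, Cxcl16 rose to 51.4, 85.0, 49.9 and 57.7 in CBDL2w, against 25.6, 22.4, 24.8 and 41.5 in Sham6w (1.08 ± 0.23, adjusted p = 0.00989), and Cxcl13 fell.

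Genes linked in mice and humans to lipid-associated and scar-associated macrophages rose in part. Of 19 tested, 4 rose (against 1.09% of all tested genes) and 0 fell, with a median change of 0.44. Cd63 (chromosome 10, 128900989 to 128912822), a tetraspanin of late endosomes, had 112, 196, 174 and 145 in CBDL2w against 30.9, 18.8, 11.9 and 7.47 in Sham6w (3.25 ± 0.38, adjusted p = 1.5e-05). The pseudogene Cd63-ps rose too, so that reads shared with it are uncertain. Trem2, a lipid-sensing receptor, had 11.3, 27.5, 20.6 and 13.9 in CBDL2w against 1.06, 5.46, 2.98 and 2.49 in Sham6w (2.32 ± 0.51, adjusted p = 0.0154). Spp1, encoding osteopontin, had 9.58, 38.6, 9.45 and 36.1 in CBDL2w against 4.26, 2.43, 1.99 and 0.830 in Sham6w (2.67 ± 0.67, adjusted p = 0.0290). The tetraspanin Cd9 also rose (2.12 ± 0.58, adjusted p = 0.0497). The call for Cd63 was kept in every setting. Trem2 lost its call without CBDL2w replicate 2 or Sham6w replicate 1, Spp1 without any of 5 libraries and Cd9 without any of 7. Cd9 also lost it with no filter, with only the 8 libraries and with a replicate block. Gpnmb (1.99 ± 0.62, adjusted p = 0.0860), Lgals3 (0.40 ± 0.18) and Apoe (0.19 ± 0.17) gave no call in the main test. Gpnmb was called under 1 alternative.

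Several further genes had large rises. Cd93, a lectin-like receptor, had 36.6, 54.1, 31.8 and 45.0 in CBDL2w against 14.9, 3.64, 2.98 and 4.15 in Sham6w (2.75 ± 0.44, adjusted p = 0.000515). Gda, encoding guanine deaminase, had 81.9, 130, 86.0 and 92.6 in CBDL2w against 25.6, 21.8, 16.9 and 25.7 in Sham6w (2.06 ± 0.25, adjusted p = 2.07e-05). The signal-regulatory receptor gene Sirpb1c had 56.6, 92.7, 74.8 and 121 in CBDL2w against 29.8, 37.6, 15.9 and 14.9 in Sham6w (1.82 ± 0.36, adjusted p = 0.00568), and its near-identical neighbours Sirpb1b and Sirpb1a also rose, so their separate levels are uncertain. The call for Sirpb1a was lost without any of 7 libraries, with no filter and with a replicate block. Calls for Cd93, Gda, Sirpb1b and Sirpb1c were kept in every setting. By the same rule Hmgn2, a chromatin protein (1.21 ± 0.33, adjusted p = 0.0448), and Bcl2a1b, an inhibitor of apoptosis in a family of near-identical copies (1.14 ± 0.27, adjusted p = 0.0192), were named. Both lost their calls with no filter and without some single libraries, Hmgn2 without any of 7. Bcl2a1b also lost its call with a replicate block.

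Falls outside the fixed lists, chosen after their values were seen, included Lilra5, an activating leukocyte receptor, at 23.5, 28.3, 32.7 and 17.8 in CBDL2w against 61.7, 78.2, 73.5 and 70.5 in Sham6w (-1.47 ± 0.28, adjusted p = 0.00435). Adcy4, an adenylate cyclase, had 6.97, 0.858, 0.860 and 7.61 in CBDL2w against 42.6, 37.0, 37.7 and 26.6 in Sham6w (-3.22 ± 0.65, adjusted p = 0.00645). The nucleoside transporter Slc29a1 fell by 1.42 on the log2 scale (adjusted p = 0.00859). For each of the 3 genes the groups did not overlap and the call was kept in every setting.

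Several low genes, chosen after their values were seen, were close to absent in controls. Slpi, a secreted protease inhibitor, had 10.5, 14.6, 9.45 and 15.9 in CBDL2w and 0 in each Sham6w library, at least 4.80-fold higher against a floor of 3 counts per library. Prg4, encoding lubricin, had 7.84, 21.5, 37.8 and 34.2 in CBDL2w against 0, 0, 5.96 and 0 in Sham6w (3.81 ± 1.03, adjusted p = 0.0448), a call lost without any of 6 libraries. Mmp14, a membrane-bound collagenase, had 13.9, 18.0, 29.2 and 12.7 in CBDL2w against 4.26, 3.03, 1.99 and 1.66 in Sham6w (2.36 ± 0.40, adjusted p = 0.00108). The semaphorin Sema4d had 8.71, 16.3, 16.3 and 17.1 in CBDL2w against 1.06, 2.43, 0 and 0 in Sham6w (3.22 ± 0.58, adjusted p = 0.00206). Of the 11 tested genes of matrix and proteases, Fn1 and Mmp14 rose (against 1.09% of all tested genes) and 0 fell.

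Complement genes fell where they were called. Of 14 tested, 4 fell (C2, C4b, C6 and Vsig4), against 1.62% of all tested genes, and 0 rose, with a median of -0.49. C6, a component of the membrane attack complex, had 54.0, 40.3, 30.9 and 55.2 in CBDL2w against 175, 236, 183 and 157 in Sham6w (adjusted p = 0.00231). C4b, a component of the classical and lectin pathways, had 29.6, 17.2, 12.0 and 13.9 in CBDL2w against 46.8, 58.8, 92.3 and 31.5 in Sham6w (-1.58 ± 0.36, adjusted p = 0.0174). Its reads can be shared with the near-identical C4a, and its call was lost without CBDL2w replicate 3 or Sham6w replicate 2 or 3. The C1q genes, the recognition subunits made by macrophages, were not called in the main test, with C1qa at 250, 222, 227 and 278 in CBDL2w against 358, 349, 365 and 326 in Sham6w (-0.52 ± 0.15, adjusted p = 0.0596). C1qa was called under 2 alternatives.

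Interferon response genes leaned downward. Of 24 tested, 4 fell (Rsad2, Iigp1, Rtp4 and Irf1) and 0 rose, with a median of -0.67 and 22 negative values. Falls made up 1.62% over all tested genes. Rsad2, the antiviral enzyme viperin whose promoter is shown above, had 12.2, 6.87, 12.0 and 10.1 in CBDL2w against 43.6, 23.6, 45.7 and 29.9 in Sham6w (-1.68 ± 0.40, adjusted p = 0.0198). Iigp1, an interferon-inducible GTPase, had 7.84, 8.58, 4.30 and 4.44 in CBDL2w against 46.8, 41.8, 57.6 and 15.8 in Sham6w (-2.42 ± 0.60, adjusted p = 0.0291). Rtp4 had 1 low control, at 47, 61.8, 54.2 and 43.8 in CBDL2w against 134, 139, 139 and 60.6 in Sham6w, where the groups overlapped (-1.11 ± 0.26, adjusted p = 0.0192). Each of these 3 calls was lost without some single libraries, and that of Iigp1 also with no filter. Without Sham6w replicate 1 or 3, 0 of the 24 were called and the median was -0.62 or -0.64. Outside the list, the neighbouring DNA-sensor family genes Mndal (-1.16 ± 0.20, adjusted p = 0.000986) and Ifi203 (-1.03 ± 0.19, adjusted p = 0.00318) fell in every setting, with reads that may be shared between them.

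Genes of heme and iron handling, a main task of Kupffer cells, fell in 3 of 17 cases with 0 rises (median -0.52). Of all tested genes 1.62% fell. Ftl1, the ferritin light chain, had 2079, 1868, 1813 and 2144 in CBDL2w against 2654, 2801, 2971 and 3180 in Sham6w. The change was small but tight between libraries (-0.55 ± 0.10, adjusted p = 0.00304), and the pseudogene Ftl1-ps1 fell with it. Slc40a1, encoding ferroportin, had 395, 293, 316 and 313 in CBDL2w against 542, 665, 553 and 491 in Sham6w (-0.77 ± 0.17, adjusted p = 0.0149), a call lost without Sham6w replicate 2. Cd163 was the third. Hmox1, the heme-degrading oxygenase, had 168, 233, 208 and 151 in CBDL2w against 247, 250, 349 and 308 in Sham6w, without overlap and without a call (-0.60 ± 0.25, adjusted p = 0.227).

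**Figure D3:**
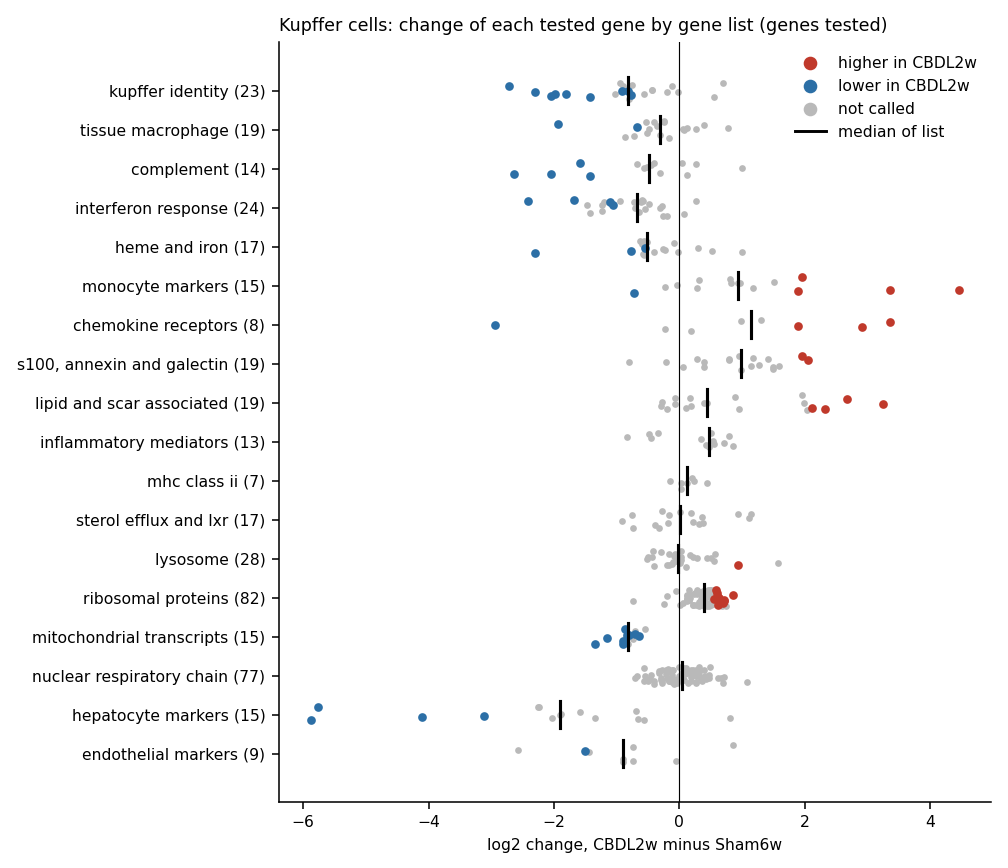
Change of each tested gene (horizontal axis, log2, CBDL2w minus Sham6w) in 18 gene lists, with the number of tested genes in brackets. Red points rose, blue points fell, grey points were not called and black bars are list medians. The medians are -0.81 for Kupffer identity, 0.94 for monocyte markers and 0.04 for the nuclear respiratory chain.

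Ribosomal protein genes and mitochondrial transcripts moved in opposite directions. Of 82 ribosomal protein genes, 11 rose (against 1.09% of all tested genes) and 0 fell, with a median of 0.40 and 78 positive values. Rps18 had 649, 577, 577 and 481 in CBDL2w against 328, 287, 282 and 370 in Sham6w (0.85 ± 0.13, adjusted p = 0.00033), a call kept in every setting. The number of calls in this list ranged from 2 (without CBDL2w replicate 3 or Sham6w replicate 2) to 19 (without CBDL2w replicate 4). Of 15 transcripts of the mitochondrial genome, 9 fell (against 1.62% of all tested genes) and 0 rose, with a median of -0.81. The respiratory subunit mt-Co1 had 1081, 554, 625 and 713 in CBDL2w against 1105, 1733, 1394 and 1208 in Sham6w (-0.90 ± 0.24, adjusted p = 0.0406). That call was lost without any of 7 libraries, with no filter and with a replicate block. Of 77 respiratory chain genes encoded in the nucleus, 0 were called, with a median of 0.04. Without CBDL2w replicate 4 or Sham6w replicate 2, 0 of the 15 mitochondrial transcripts were called, with medians of -0.69 and -0.72, and without CBDL2w replicate 3 or Sham6w replicate 3 it was 1. As shares of reads, ribosomal protein genes made up 10.1 to 14.1% in CBDL2w against 7.84 to 8.88% in Sham6w, and mitochondrial transcripts 3.95 to 6.30% against 6.46 to 9.00%. These shares differ between the groups without overlap, and their part in the other results was not tested.

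Transcripts known from hepatocytes were present in the Sham6w libraries and lower in CBDL2w. All 18 tested major urinary protein (Mup) genes and pseudogenes, a cluster of near-identical genes on chromosome 4 expressed by hepatocytes, fell, with changes between -5.87 and -4.11. Since reads cannot be assigned reliably among them, their sum is the safer value: 95.0, 24.0, 55 and 41.8 normalized counts in CBDL2w against 3091, 3245, 4494 and 1593 in Sham6w. Mup genes were 0.00854 to 0.0324% of reads in CBDL2w and 0.519 to 1.41% in Sham6w. The other 22 hepatocyte markers were 0.0545 to 0.0663% in CBDL2w and 0.0809 to 0.194% in Sham6w. The ratio of mean shares was 0.0190 for Mup genes and 0.429 for the other hepatocyte markers. That second share depends on Trf, the highest tested member outside the Mup genes, with means of 99.3 in CBDL2w and 147 in Sham6w (-0.57 ± 0.24). Other members stood lower: Serpina3k fell (-3.11 ± 0.73, adjusted p = 0.0192 by limma), and Ttr gave no call in the main test (-2.26 ± 0.62). Ttr was called under 4 alternatives. Of 15 tested hepatocyte markers, Mup genes included, 14 had negative changes. Alb, encoding albumin, had 9.58, 3.43, 1.72 and 10.1 in CBDL2w against 25.6, 13.9, 46.7 and 14.1 in Sham6w (-1.91 ± 0.58, adjusted p = 0.0764), and was called under 1 alternative. Mup9 was also lower in the other cell types, at 1.31 ± 1.54 in CBDL2w against 127 ± 72.0 in Sham6w monocyte-derived macrophages (SD, n = 4 and 3) and 2.68 ± 3.87 against 94.5 ± 38.6 in monocytes (SD, n = 4 and 3).

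**Figure D4:**
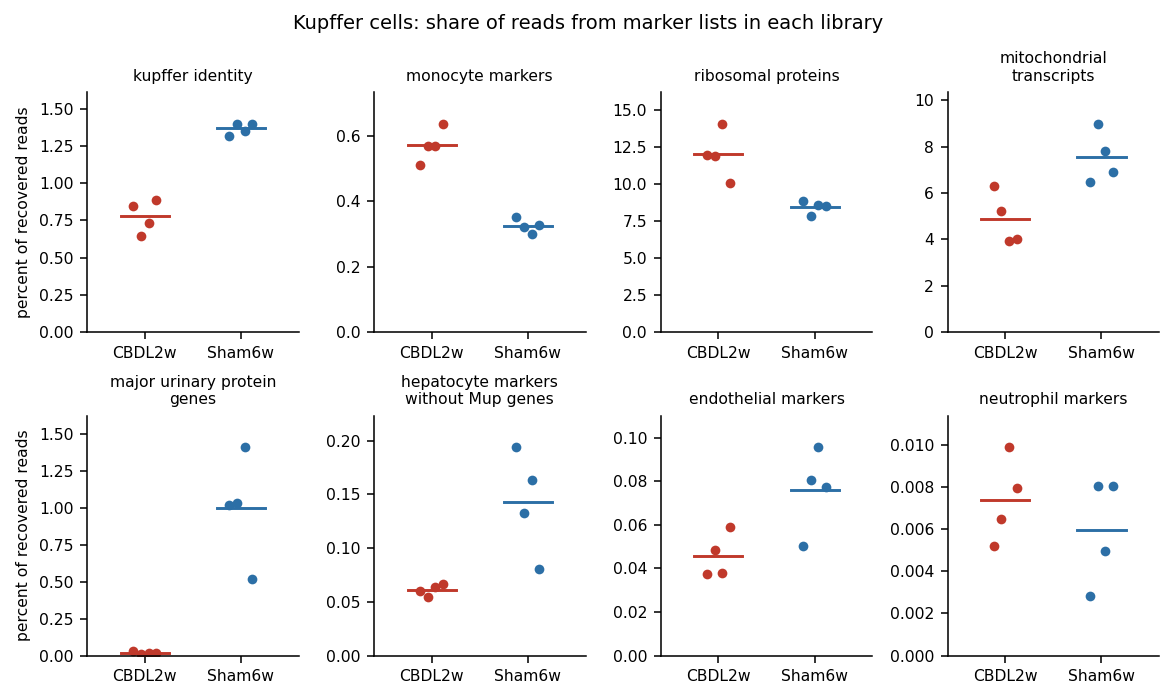
Percent of recovered reads from 8 marker lists (vertical axes from 0) in each Kupffer cell library, CBDL2w in red on the left and Sham6w in blue on the right, with lines at the means. The Mup genes lie at 0.00854 to 0.0324% in CBDL2w and 0.519 to 1.41% in Sham6w, whereas endothelial and neutrophil shares overlap.

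Markers of other cells gave fewer calls. Endothelial markers were 0.0374 to 0.0590% of reads in CBDL2w and 0.0505 to 0.0958% in Sham6w. Of 9 tested, 8 had negative changes (median -0.90) and 1 fell, Igfbp7, a secreted binding protein (-1.51 ± 0.39, adjusted p = 0.0375), whose call was lost without any of 7 libraries. Neutrophil markers were 0.00521 to 0.00989% in CBDL2w and 0.00281 to 0.00805% in Sham6w, with 6 of 14 at 0 in all 8 libraries. Shares of T and NK cell, B and plasma cell, dendritic cell, stellate cell, cholangiocyte, and erythroid and platelet markers overlapped too. Of 4 tested in the last list, 0 were called. The hemoglobin genes Hba-a1 (-1.80 ± 0.70), Hba-a2 (-2.08 ± 0.73) and Hbb-bs (-2.07 ± 0.62) were negative, and Pf4 was positive (1.13 ± 0.37). Immediate-early genes that respond to tissue dissociation were 0.471 to 0.694% in CBDL2w and 0.403 to 0.494% in Sham6w, and 0 of 21 were called.

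Several pathways studied in cholestatic livers gave no call. Sterol efflux and LXR target genes had 0 of 17 called and a median of 0.01, with the cholesterol exporter Abca1 at 39.2, 44.6, 33.5 and 45.7 in CBDL2w against 41.5, 47.3, 36.7 and 36.5 in Sham6w. Its groups overlapped (0.01 ± 0.21). MHC class II genes, which present antigen, had 0 of 7 called and a median of 0.13. Inflammatory mediators had 0 of 13 called and a median of 0.48, with Il1b at 113, 84.1, 145 and 124 in CBDL2w against 66.0, 48.5, 77.4 and 72.2 in Sham6w (0.80 ± 0.30, adjusted p = 0.170). Il1b groups did not overlap, and Il1b was called under 1 alternative. At this depth the test recovered 27% of simulated 2-fold changes and 64% of 4-fold changes. A missing call therefore does not show that a gene was unchanged. None of the 6 genes listed as bile acid receptors reached the minimum for testing.

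The same Kupffer cells were then set against those 6 weeks after ligation, in a comparison that shares the CBDL2w libraries with the one above. Of 6159 genes, 0 were called by limma (0%), 449 had an unadjusted p under 0.05, edgeR called 0 and DESeq2 called 10. Clec4f was 114 ± 18.3 in CBDL2w and 112 ± 66.2 in CBDL6w, against 453 ± 34.7 in Sham6w (SD, n = 4 each). Cx3cr1 was 260 ± 24.6 in CBDL2w and 314 ± 77.7 in CBDL6w, against 30.8 ± 27.3 in Sham6w. Fn1 was 232 ± 108 in CBDL2w and 164 ± 143 in CBDL6w, against 13.0 ± 13.2 in Sham6w. The CBDL6w libraries were more spread, so differences between the times are poorly bounded.

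The effect of CBDL2w against Sham6w was next compared with that in monocyte-derived macrophages, by an interaction in 1 fit over all 58 libraries and 7555 genes. It was more positive in Kupffer cells for 18 genes (0.238%) and more negative for 8 (0.106%), together 0.344%. In simulated data with 200 changed genes, this interaction recovered 0% of 2-fold and 22% of 4-fold changes. It made 3 false calls there, 12% of its calls. Cx3cr1 was 260 ± 24.6 in CBDL2w Kupffer cells against 30.8 ± 27.3 in Sham6w (SD, n = 4 each). In monocyte-derived macrophages it was 291 ± 29.6 in CBDL2w (SD, n = 4) against 337, 71.7 and 99.2 in Sham6w, where 1 control lay above every CBDL2w library (1.11 ± 0.33, adjusted p = 0.0322 by limma). The difference between these effects was 2.25 ± 0.45 (adjusted p = 0.00958), a call lost without Sham6w replicate 1+2+5 of the monocyte-derived macrophages. That library had the fewest recovered reads of the 58, at 118687, against 272554 and 294183 in the other Sham6w libraries of these cells. The part of its depth in these differences was not tested. Anxa2, a membrane-binding annexin, was 26.0 ± 12.9 in CBDL2w against 5.89 ± 4.09 in Sham6w Kupffer cells, and 48.3 ± 4.07 in CBDL2w against 86.3 ± 42.8 in Sham6w monocyte-derived macrophages. Its difference of 2.77 ± 0.51 (adjusted p = 0.00476) was kept in every setting, as was that of Arl6ip5, a membrane trafficking protein (1.93 ± 0.37, adjusted p = 0.00493). Differences for Hmgn2 (2.42 ± 0.51, adjusted p = 0.0131) and Sema4d (2.76 ± 0.58, adjusted p = 0.0131) lost their calls without that same library, Hmgn2 also without CBDL2w replicate 4 of the monocyte-derived macrophages and Sema4d also with a pseudocount of 5. The count of 26 genes ranged from 13 without CBDL2w replicate 1 of Kupffer cells to 89 without Sham6w replicate 3 of the monocyte-derived macrophages.

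The more negative effects included Spp1 and the ferritin heavy chain. Spp1 was 23.5 ± 16.1 in CBDL2w against 2.37 ± 1.42 in Sham6w Kupffer cells, and 137 ± 55.5 in CBDL2w against 1.31 ± 2.27 in Sham6w monocyte-derived macrophages. The difference of -3.58 ± 0.86 (adjusted p = 0.0388) lost its call in 13 of 22 alternatives, edgeR and DESeq2 included. Fth1 was 1232 ± 91.8 in CBDL2w against 1641 ± 168 in Sham6w Kupffer cells, and 1599 ± 151 in CBDL2w against 671 ± 438 in Sham6w monocyte-derived macrophages (-1.98 ± 0.40, adjusted p = 0.00958), a call lost without Sham6w replicate 1+2+5 of the monocyte-derived macrophages. Dab2, an endocytic adaptor, was 184 ± 24.7 in CBDL2w against 266 ± 36.3 in Sham6w Kupffer cells, and 128 ± 20.3 in CBDL2w against 46.9 ± 21.9 in Sham6w monocyte-derived macrophages. Its difference (-2.07 ± 0.48, adjusted p = 0.0277) was lost without any of 8 libraries. For Clec4f the difference was not called (1.07 ± 0.97, adjusted p = 0.744). At the simulated recovery given above, a missing call does not show equal effects. Clec4f was 8.45 ± 4.41 in CBDL2w against 78.4 ± 43.6 in Sham6w monocyte-derived macrophages.

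**Figure D5:**
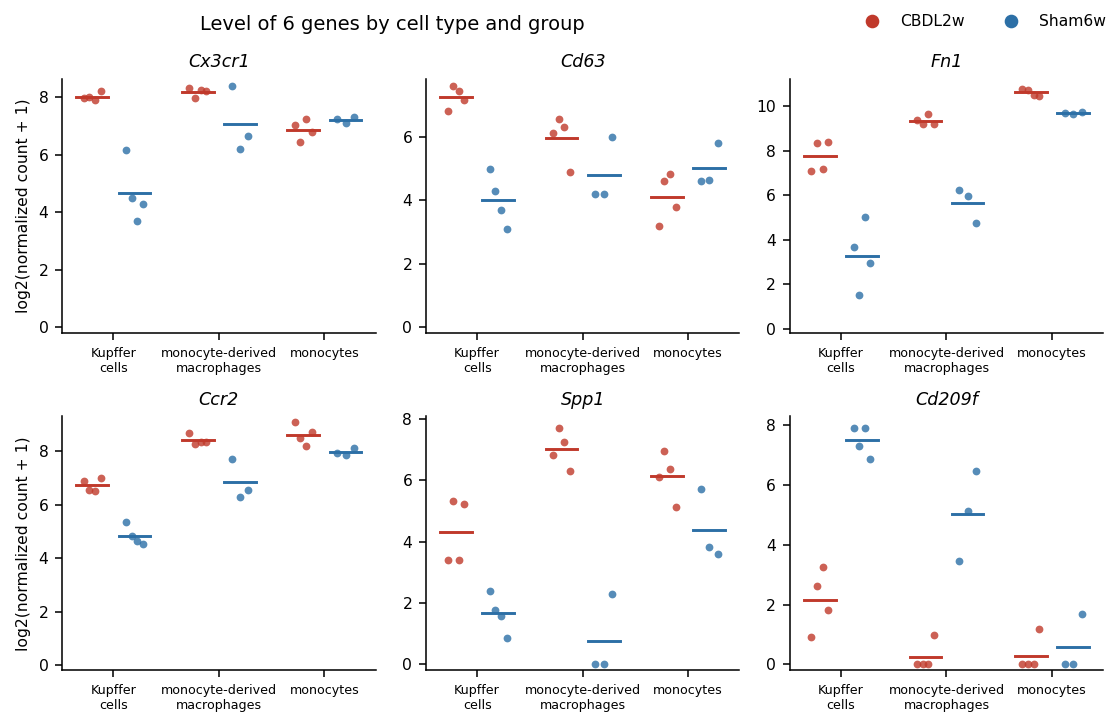
Level of 6 genes (vertical axis, log2(normalized count + 1)) in each library of Kupffer cells, monocyte-derived macrophages and monocytes, CBDL2w in red to the left of Sham6w in blue, with lines at the means. Cx3cr1 and Cd63 are higher in every CBDL2w than in every Sham6w Kupffer cell library, whereas their monocyte groups overlap.

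Against monocytes, the effect was more positive in Kupffer cells for 110 genes (1.46%) and more negative for 16 (0.212%), together 1.67%. In simulated data this interaction recovered 2% of 2-fold and 25% of 4-fold changes, with 2 false calls. The endothelial gene Ehd3 was 2.09 ± 2.52 in CBDL2w against 122 ± 34.4 in Sham6w monocytes (SD, n = 4 and 3) and 3.49 ± 1.26 against 9.11 ± 2.95 in Kupffer cells (difference 4.56 ± 0.79). Tinagl1, an extracellular glycoprotein gene, was 0.859 ± 1.20 in CBDL2w against 97.5 ± 33.0 in Sham6w monocytes (difference 3.89 ± 0.93), a call lost with edgeR, with DESeq2 and without Sham6w replicate 3+6 of the monocytes. Cd63 was 156 ± 36.5 in CBDL2w against 17.3 ± 10.2 in Sham6w Kupffer cells, and 17.9 ± 8.95 in CBDL2w against 34.2 ± 17.9 in Sham6w monocytes (difference 4.17 ± 0.74, adjusted p = 0.000386). Differences for Cx3cr1 (3.70 ± 0.45, adjusted p = 5.66e-07) and Sema4d (3.54 ± 0.58, adjusted p = 0.000124) were positive as well, and all 3 were kept in every setting.

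Cd209f was at 0 to 2.24 in every CBDL2w and Sham6w monocyte library, so a fall in monocytes could not be measured and its difference from them (-5.06 ± 1.14) restates the fall in Kupffer cells. The call for that difference was lost with edgeR and with DESeq2. In monocyte-derived macrophages Cd209f had 0, 0, 0 and 0.995 in CBDL2w against 9.91, 33.7 and 86.4 in Sham6w, without overlap (-4.76 ± 0.84, adjusted p = 0.000139 by limma). P4ha1, a collagen prolyl hydroxylase subunit, was 23.2 ± 5.65 in CBDL2w against 55.9 ± 6.43 in Sham6w Kupffer cells, and 27.7 ± 9.97 in CBDL2w against 6.44 ± 0.355 in Sham6w monocytes (-3.13 ± 0.57, adjusted p = 0.000504). Creg1, a lysosomal glycoprotein, was 271 ± 33.8 in CBDL2w against 488 ± 67.8 in Sham6w Kupffer cells, and 82.1 ± 3.81 in CBDL2w against 56.6 ± 15.2 in Sham6w monocytes (-1.41 ± 0.28, adjusted p = 0.00171). Calls for P4ha1 and Creg1 were kept in every setting. Zfand3 (-2.16 ± 0.51, adjusted p = 0.0135) lost its call without Sham6w replicate 1+2+5 of the monocytes, and Emilin2 (-1.28 ± 0.34, adjusted p = 0.0319) without any of 8 libraries.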

How the data were processed

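RNA of Kupffer cells and other liver myeloid cells was sequenced from the 3' end with unique molecular identifiers, per the labels' protocols. Build GRCm38.p6 is given, per the submitters' processing notes, together with STAR 2.7.5b, RSEM 1.3.1, Trimmomatic 0.39, UMI-tools 1.0.1 and DESeq2. The deposited table holds the authors' normalized count signal for 25307 genes in 58 libraries. Dividing by the value of 1 read gave whole reads for 100.0% of values within 0.01; these recovered reads were used for depth and for count tests only, and replicates differed by more than sampling noise. Positions come from GENCODE M21, which matched 25272 identifiers.

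Under R 4.3.3, limma 3.58.1 with a mean-variance trend and robust moderation was the main test. Values entered as log2(normalized count + 1), in 1 fit of 20 Kupffer cell libraries, over genes with at least 10 in at least 3 libraries. Interactions used 1 fit of 58 libraries. All p-values were 2-sided and adjusted over all genes tested. Alternatives were a pseudocount of 5, no filter, a minimum of 30, libraries scaled to 1 total, count tests on recovered reads (DESeq2 1.42.0, edgeR 4.0.16), only the 8 libraries, a replicate block, and each library left out. Tested on simulated data with 200 changed genes, the Kupffer cell comparison recovered 27% of 2-fold and 64% of 4-fold changes, with 4 false calls. The interaction with monocyte-derived macrophages recovered 0% and 22%, with 3 false calls. The interaction with monocytes recovered 2% and 25%, with 2 false calls.

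Genes were named by rule: the 12 largest rises and 12 largest falls with a mean of at least 30, no overlap and no predicted gene, up to 3 called members per list, cell type markers, and 5 genes each way per interaction. Other genes were chosen after their values were seen. Members and lists were chosen with earlier results of these data known. Counting intervals cover counting error only.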

Additional observations from a re-analysis of the deposited data

Results flagged for a closer look

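Of 154 groups of 4 libraries examined for a single library far from the rest, 10 stood out, and chance flags about 1 in 20. Among Sham6w libraries, Cx3cr1 was 71.3 in replicate 1 (others 11.9 to 21.8) and Cd93 was 14.9 in the same library (others 2.98 to 4.15). Replicate 2 had Itga4 at 18.8 (others 22.4 to 22.8) and Emp1 at 15.8 (others 3.19 to 4.98). Replicate 3 had Igfbp7 at 54.6 (others 27.7 to 29.1) and Prg4 at 5.96 (others 0). Replicate 4 had Cxcl16 at 41.5 (others 22.4 to 25.6) and Rtp4 at 60.6 (others 134 to 139). Among CBDL2w libraries, Sema4d was 8.71 in replicate 1 (others 16.3 to 17.1) and Cd209g was 1.72 in replicate 3 (others 0).

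The effect of CBDL2w against Sham6w differed between Kupffer cells and monocyte-derived macrophages, by an interaction test, for 8 named genes. On the log2 scale the differences were 2.77 for Anxa2, 2.76 for Sema4d, 2.42 for Hmgn2, 2.25 for Cx3cr1, 1.93 for Arl6ip5, -1.98 for Fth1, -2.07 for Dab2 and -3.58 for Spp1. Against monocytes it differed for 10 named genes, by 4.56 for Ehd3, 4.17 for Cd63, 3.89 for Tinagl1, 3.70 for Cx3cr1, 3.54 for Sema4d, -1.28 for Emilin2, -1.41 for Creg1, -2.16 for Zfand3, -3.13 for P4ha1 and -5.06 for Cd209f, which was at 0 to 2.24 in every CBDL2w and Sham6w monocyte library.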

How the results depend on the processing

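The count of 167 genes in CBDL2w against Sham6w was 309 with DESeq2 and 85 to 157 with single libraries left out (94 without Sham6w replicate 1, 85 without replicate 2, 89 without replicate 3, 105 without CBDL2w replicate 2 and 87 without replicate 3). Scaling to equal totals moved the share of higher calls to 59.3%, against 40.1%, and using only the 8 libraries moved it to 26.4%. CBDL2w against CBDL6w gave 10 calls with DESeq2 and 0 to 1 with single libraries left out. The 26 differences from monocyte-derived macrophages became 17 with edgeR and 13 to 89 with single libraries left out (89 without Sham6w replicate 3 and 54 without Sham6w replicate 4+6 of the monocyte-derived macrophages). The 126 differences from monocytes became 211 with a pseudocount of 5, 61 with edgeR and 75 to 133 with single libraries left out. The cause was not tested. Of 1657 values for 107 named genes under the alternatives, 1387 kept their side of the threshold, 245 lost the call, 25 gained it and 0 reversed. In simulated data 27% of 2-fold changes were recovered for CBDL2w against Sham6w Kupffer cells, and 0% and 2% for the 2 interactions. The part of depth in this was not tested.

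Deviations from group means correlated weakly between libraries with the same replicate number. For CBDL2w with Sham6w Kupffer cells the correlations were -0.036 to 0.019, against -0.048 to 0.049 between different numbers. For Kupffer cells with monocyte-derived macrophages they were 0.011 to 0.062, against -0.047 to 0.026, and with monocytes 0.003 to 0.035, against -0.082 to 0.072. Whether libraries with the same number share an animal was not tested. A replicate block with only the 8 libraries gave 131 calls for CBDL2w against Sham6w, against 193 with those libraries and no block, and shared 27 of the 67 rises and 63 of the 100 falls. Cxcl16 was not called in it (adjusted p = 0.0634 by limma). The block gave 0 against CBDL6w, 29 for the difference from monocyte-derived macrophages and 133 for that from monocytes.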

Other observations

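All 15 tested genes of the cell cycle had positive changes, with a median of 0.61 on the log2 scale. Against 1.09% of all tested genes, 1 rose. This was Birc5, encoding survivin, at 4.36, 6.87, 4.30 and 8.24 in CBDL2w against 0, 1.82, 1.99 and 0 in Sham6w (1.98 ± 0.48, adjusted p = 0.0226 by limma), a call lost without any of 4 libraries.

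Genes of patrolling monocytes, which in blood share Cx3cr1, did not move with it: of 11 tested, 1 rose (Cx3cr1 itself) and 0 fell, with a median of -0.20 and 9 negative values. Of 19 tested S100, annexin and galectin genes, S100a6 and Anxa2 rose (against 1.09% of all tested genes) and 17 had positive values (median 0.98). The call for Anxa2 was lost without CBDL2w replicate 3 or 4 or Sham6w replicate 1 or 3.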
